A study of Mus musculus with 4 samples.

Results

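The TAM receptors Mertk, Axl and Tyro3, their ligands Gas6 and Pros1, and 3 further genes of the uptake of dying cells and debris (Mfge8, Megf10 and Gulp1) were followed in cultured mouse astrocytes. They were chosen by name, as the entries of the deposited count table whose gene symbol is one of these 8, and all 8 were found among its 45703 genes. The series is an RNA-seq profile of 1 group of 4 cultures, numbered 1 to 4 as labelled, whose stated aim is a survey of calcium signalling genes, so these genes lie outside that aim. Each culture held glial cells from the frontal cortex of wild-type CD-1 mice at postnatal day 4, grown with serum, B27 and EGF at 10 ng/ml, reseeded at day 6 in vitro and lysed 3 days later after 1 h in serum-free Ham's medium. The labels name no sorting step, do not say how many mice gave a culture, and do not say whether the cultures were separate preparations. The p-values below therefore measure only the spread between these 4 libraries, and engulfment itself was not measured.

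Cells that die expose phosphatidylserine on their surface. Gas6 and Pros1 (protein S) bind this lipid through a domain rich in carboxylated glutamate, the Gla domain, and with their other end bind and activate the TAM receptors, a family of receptor tyrosine kinases. In mouse, Gas6 binds Axl, Mertk and Tyro3, while Pros1 binds Mertk and Tyro3. Mfge8 works in the same way as a bridge from phosphatidylserine to integrins that contain the alpha v chain. Megf10 is an engulfment receptor related to Draper of the fly, and Gulp1 is an adaptor protein that binds the tails of such receptors. Astrocytes of the mouse brain are known to take up synapses through Megf10 and Mertk.

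The receptors are paralogues, as are the ligands. Closely matching coding stretches are therefore shown here, for whether a read could be assigned to the wrong gene. They are ungapped runs of 60 bases from the longest coding sequences of the GENCODE M21 transcripts (build GRCm38). Capitals mark bases that all members of the set share. For the ligands this is the run with the most matches. For the receptors the Axl run was taken whose poorer best match, to Mertk or Tyro3, was highest. Mertk and Tyro3 were not searched against each other for this, and untranslated sequence was not compared. The receptor stretch codes for part of the kinase domain and the ligand stretch for part of the Gla domain.
Axl: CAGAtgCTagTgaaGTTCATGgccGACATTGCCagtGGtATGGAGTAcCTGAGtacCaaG
Mertk: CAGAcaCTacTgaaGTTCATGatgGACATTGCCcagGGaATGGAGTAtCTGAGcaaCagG
Tyro3: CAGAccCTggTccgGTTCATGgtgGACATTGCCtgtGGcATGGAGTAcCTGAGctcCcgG
Gas6: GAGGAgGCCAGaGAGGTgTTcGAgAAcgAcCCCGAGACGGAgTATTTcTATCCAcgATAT
Pros1: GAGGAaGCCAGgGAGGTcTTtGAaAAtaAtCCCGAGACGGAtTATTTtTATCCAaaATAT
The 3 receptors share 40 of these 60 bases, and Gas6 and Pros1 share 48 of 60. Over the whole coding sequences, the longest identical run was 14 bases in each pair of receptors and 12 bases between Gas6 and Pros1. The deposited counts of Axl, Mertk, Tyro3, Gas6, Gulp1 and Megf10 were whole numbers in all 4 libraries, while those of Pros1 were whole in 3 and those of Mfge8 in 2. How reads that match several features were counted is not given in the labels.

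The libraries held 37300485 to 42369109 counts. Culture 4 stood apart from the others: the chi-square per degree of freedom between libraries was 39.4 to 41.1 for its pairs and 2.11 to 3.17 for pairs among cultures 1 to 3. All 10 astrocyte markers were expressed, here meaning a CPM (counts scaled to the library total) of at least 1 in every library, and the glutamate transporter Slc1a3 stood at 2601 ± 78.6 CPM (SD, n = 4, here and below). The intermediate filament gene Gfap stood at 779.7 CPM in culture 4 and 1498 to 1555 CPM in cultures 1 to 3. The summed astrocyte markers were 6432 CPM in culture 4 and 7450 to 7629 CPM in cultures 1 to 3, with 2 of 10 more than 1.5-fold lower. Only 6 of the 10 were lower in culture 4 at all. Aldoc was higher, at 700.0 CPM there and 623.0 to 631.8 CPM in cultures 1 to 3. Of the 13 microglia and macrophage markers 11 were expressed, with summed levels of 95.2 CPM in culture 4 and 139 to 151 CPM in cultures 1 to 3. The summed levels of 6 fibroblast and meningeal markers were 495 CPM in culture 4 and 1325 to 1410 CPM in cultures 1 to 3. This sum was mostly Col1a2 and Col1a1, with means of 651.7 and 464.9 CPM, where the mean sum was 1147 CPM. Of the 4 expressed genes of that list, 3 were lower in culture 4 and 1 was higher. Expressed markers were 5 of 8 for the oligodendrocyte lineage, 5 of 8 for neurons, 2 of 6 for endothelium, 4 of 6 for mural cells and 4 of 6 for fibroblasts and meninges. Some of these were abundant, with 240.9 ± 7.89 CPM for Olig2 of the oligodendrocyte lineage, 147.8 ± 4.73 CPM for the neuronal gene Stmn2, and 1929 ± 53.3 and 1019 ± 98.2 CPM for the mural genes Acta2 and Tagln. Others were at the floor: the oligodendrocyte gene Mog and the endothelial gene Cldn5 had 1 count each in all. In such bulk samples fewer cells of a type and less RNA per cell cannot be told apart.

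All 8 members were expressed, where 32.2% of all genes in the table were. Per kilobase of combined exon length (RPKM), Mfge8 was the most abundant, followed by Axl, Gas6, Pros1, Gulp1, Megf10, Tyro3 and Mertk. The span was wide, with 77.1 ± 4.07 RPKM for Mfge8 and 1.96 ± 0.10 RPKM for Mertk. Among the 14725 expressed genes Mfge8 stood above 93.5% and Mertk above 19.9% by RPKM.

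**Figure D1:**
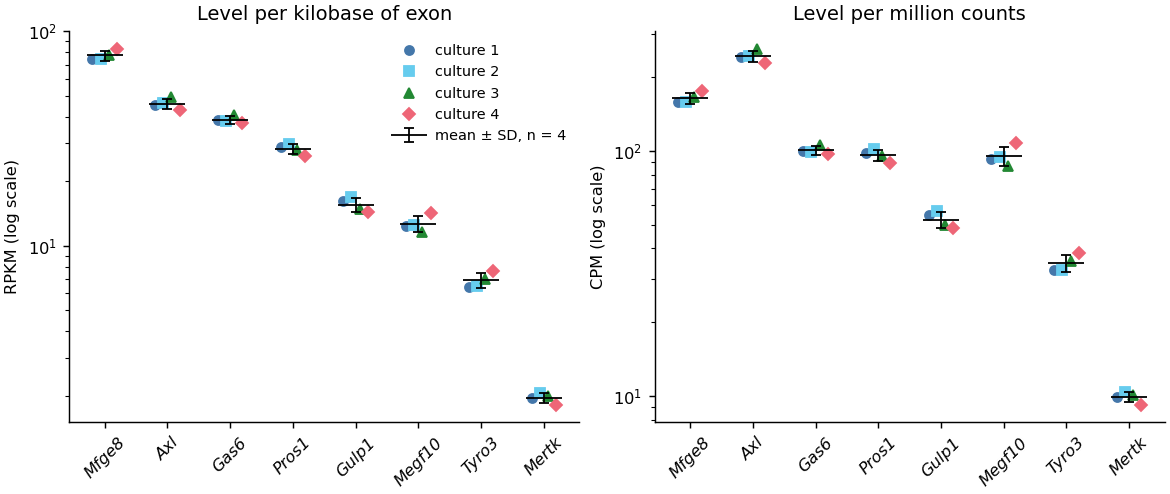
Level of each member in the 4 cultures, as RPKM (left) and CPM (right), both on log axes. Points are cultures and bars are the mean ± SD (n = 4); Mertk lies lowest in both panels, while Mfge8 leads in RPKM and Axl in CPM.

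Among the receptors, Axl was dominant and Mertk scarce. Axl (GeneID 26362; GRCm38.p6 chromosome 7, 25756500 to 25788924, minus strand) had 240.1, 243.8, 259.7 and 227.1 CPM in cultures 1 to 4, or 46.0 ± 2.54 RPKM. Its highest value was in culture 3 and its lowest in culture 4. Axl made up 83.8% ± 1.21 of the summed RPKM of the 3 receptors, with a range of 82.0% to 84.5%. Tyro3 (GeneID 22174; chromosome 2, 119797740 to 119818104, plus strand) had 32.6, 32.8, 35.5 and 38.4 CPM, or 6.91 ± 0.55 RPKM, and was highest in culture 4. Mertk (GeneID 17289; chromosome 2, 128698915 to 128803162, plus strand), the TAM receptor best known for uptake by macrophages and the retinal pigment epithelium, had 9.91, 10.4, 10.1 and 9.25 CPM. Its level rested on 378 to 418 counts per library, against 9624 to 9864 for Axl.

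The receptor levels did not overlap in any library. Within libraries Axl was 6.66-fold above Tyro3 per length, with a log2 ratio of 2.74 ± 0.16 and Axl on top in 4 of 4 libraries (edgeR adjusted p = 3.12e-09). Adjusted p-values here and below are from edgeR's quasi-likelihood fit, by the method of Benjamini and Hochberg over all genes set against the same member. Axl was 23.5-fold above Mertk (log2 ratio 4.56 ± 0.05, 4 of 4 libraries, edgeR adjusted p = 1.33e-11). Tyro3 was 3.53-fold above Mertk (log2 ratio 1.82 ± 0.18, 4 of 4 libraries, edgeR adjusted p = 3.13e-08). Nearly any gene is called in this test: 94.6% of 17104 genes differed from Tyro3 and 95.1% from Mertk, so a call is near the background. The ratio of Axl to Tyro3 was 5.65 in culture 4 and 7.05, 7.10 and 6.995 in cultures 1, 2 and 3, and that of Tyro3 to Mertk was 4.18 in culture 4 and 3.17 to 3.53 in cultures 1 to 3. Microglia of the mouse brain also express Mertk and Axl, and the part of the microglial marker level in either gene was not tested.

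**Figure D2:**
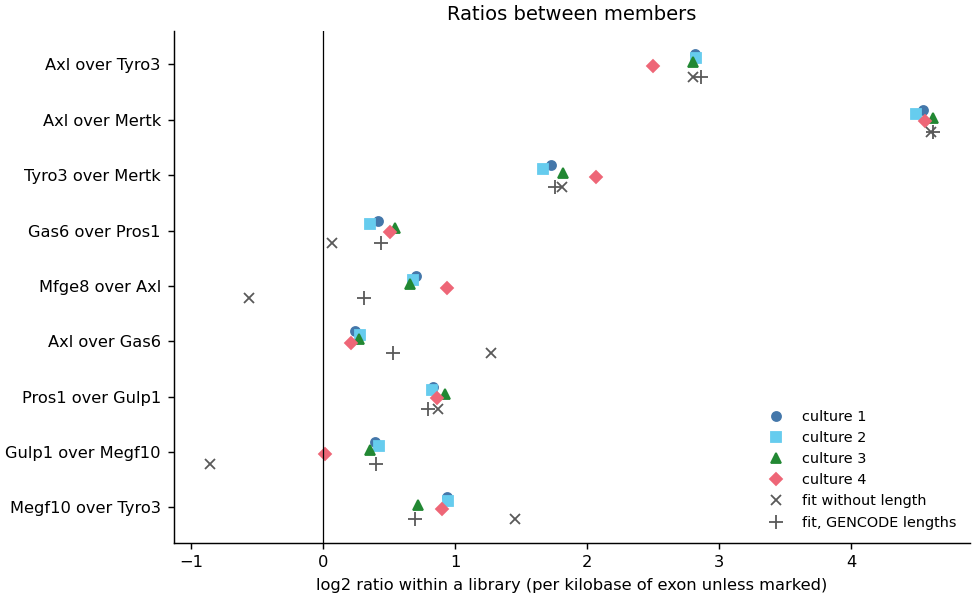
Log2 ratios between members within each library; the gene named first is on top of the ratio. Coloured points are the 4 cultures on the RPKM scale, and the crosses and plus signs are fitted ratios without a length term and with the longest GENCODE transcript as length. The 3 receptor ratios keep their place under each length, while Mfge8 over Axl and Gulp1 over Megf10 lie below 0 without a length term.

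The 2 ligands were present at similar levels. Gas6 (GeneID 14456; chromosome 8, 13465374 to 13494535, minus strand) had 99.8, 98.7, 105.8 and 96.7 CPM in cultures 1 to 4, or 38.7 ± 1.51 RPKM. Pros1 (GeneID 19128; chromosome 16, 62854307 to 62929346, plus strand), known also as an anticoagulant cofactor of blood plasma, had 97.9, 101.4, 95.1 and 89.1 CPM, or 28.2 ± 1.53 RPKM. In CPM the values of the ligands overlapped, and Pros1 was above Gas6 in culture 2. Per length Gas6 was 1.37-fold above Pros1 (log2 ratio 0.46 ± 0.09, 4 of 4 libraries, edgeR adjusted p = 2.61e-05), in a test in which 96.7% of all genes differed from Pros1. Without the length term the ratio was 1.05 (edgeR adjusted p = 0.252), so the call rests on the exon lengths of 2593 and 3399 bases. The gene Tmem255b overlaps Gas6 on the opposite strand and had 13 counts in all. Gulp1 is overlapped on the opposite strand by Gm39635 (11 counts in all) and 4930521E06Rik (0 counts). On the same strand Gulp1 is overlapped by the pseudogene Gm16102, with 2.25 counts in all.

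Both ligands need vitamin K dependent carboxylation of their Gla domains to bind membranes. All 5 listed genes of that pathway were expressed, and none passed a 1.5-fold difference between culture 4 and the others. Ggcx, the carboxylase itself, had 24.3 ± 0.34 CPM, or a mean of 3.01 RPKM, the lowest RPKM of the 5. The vitamin K epoxide reductase Vkorc1 and its paralogue Vkorc1l1 had 27.3 ± 0.61 and 15.7 ± 0.43 RPKM. Calu, an inhibitor of the carboxylase, was the most abundant at 241.6 ± 4.98 RPKM. Nqo1, a quinone reductase, had the widest range of the list, at 16.7 CPM in culture 4 and 21.0 to 21.3 CPM in cultures 1 to 3.

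Mfge8 (GeneID 17304; chromosome 7, 79133768 to 79149060, minus strand) had 157.4, 157.5, 165.1 and 175.7 CPM in cultures 1 to 4, and its highest value was in culture 4. Per length it was 1.68-fold above Axl, the next member (log2 ratio 0.75 ± 0.13, 4 of 4 libraries, edgeR adjusted p = 2.1e-06), where 97.7% of all genes differed from Axl. Without the length term this direction turned, at a log2 ratio of -0.57 (edgeR adjusted p = 1.4e-05). Of the integrin chains that receive Mfge8, Itgav had 37.9 ± 2.76 RPKM and Itgb5 60.8 ± 2.92 RPKM. Itgb3, their alternative beta chain, was not expressed by the rule, at 0.64 CPM in culture 4 and 1.10 to 1.47 CPM in cultures 1 to 3 (it was named here after its values were seen). Edil3, a secreted relative of Mfge8 and also named after its values were seen, had 0.97 CPM in culture 4 and 3.92 to 4.45 CPM in cultures 1 to 3.

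Megf10 (GeneID 70417; chromosome 18, 57133090 to 57297467, plus strand) had 92.8, 94.3, 86.9 and 107.1 CPM in cultures 1 to 4, or 12.7 ± 1.13 RPKM. It was lowest in culture 3 and highest in culture 4, and its 1.23-fold span between these was the widest of any member. Its paralogue Megf11 was much scarcer, at 0.32 ± 0.09 RPKM, with 5.62 CPM in culture 4 and 2.90 to 3.85 CPM in cultures 1 to 3.

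Gulp1 (GeneID 70676; chromosome 1, 44551380 to 44796838, plus strand) had 54.6, 56.8, 49.8 and 48.6 CPM, or 15.6 ± 1.1 RPKM, with cultures 1 and 2 above cultures 3 and 4. Per length it was 1.23-fold above Megf10 (log2 ratio 0.30 ± 0.19, 4 of 4 libraries, edgeR adjusted p = 0.00777), in a test where 94.6% of all genes differed from Megf10. The ratio was 1.01 in culture 4 and 1.28 to 1.34 in cultures 1 to 3. With cultures 1 to 3 summed as 1 sample the call was lost (log2 ratio 0.21, edgeR adjusted p = 0.172), and without the length term Megf10 was above Gulp1 (log2 ratio -0.86, edgeR adjusted p = 1.69e-05).

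The remaining neighbours were also called apart, so that 7 of 7 neighbouring pairs passed the test with the gene of higher mean RPKM on top. Axl was 1.19-fold above Gas6 (log2 ratio 0.25 ± 0.03, 4 of 4 libraries, edgeR adjusted p = 0.000332; 97.8% of all genes differed from Gas6), and 2.42-fold above it without the length term. Pros1 was 1.81-fold above Gulp1 (log2 ratio 0.86 ± 0.04, 4 of 4 libraries, edgeR adjusted p = 3.62e-13; 95.0% of all genes differed from Gulp1). Megf10 was 1.83-fold above Tyro3 (log2 ratio 0.88 ± 0.11, 4 of 4 libraries, edgeR adjusted p = 9.41e-07).

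The ratio of the highest to the lowest culture was 1.09 for Gas6, the smallest, and 1.23 for Megf10, the largest. For 5 of the 8 members it was below the median of all expressed genes. The biological coefficient of variation (BCV), the spread beyond counting error, was 0.066 for Mfge8 and 0.093 for Mertk at the ends of the range. With all 4 cultures it was below the median of 0.094 over the 17105 genes kept for all 8 members. By CPM, Tyro3 stood above 57.3% of expressed genes and Mertk above 27.1%, and the other 6 stood higher, so the members are not like all genes in abundance. Without culture 4 the comparison of BCV turned: 6 of 8 members, all but Mfge8 and Pros1, were above the median of all genes, which was then 0.0255, and the median of the members was 0.0271, against 0.0772 with culture 4. The members are therefore not shown to vary less than other genes.

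**Figure D3:**
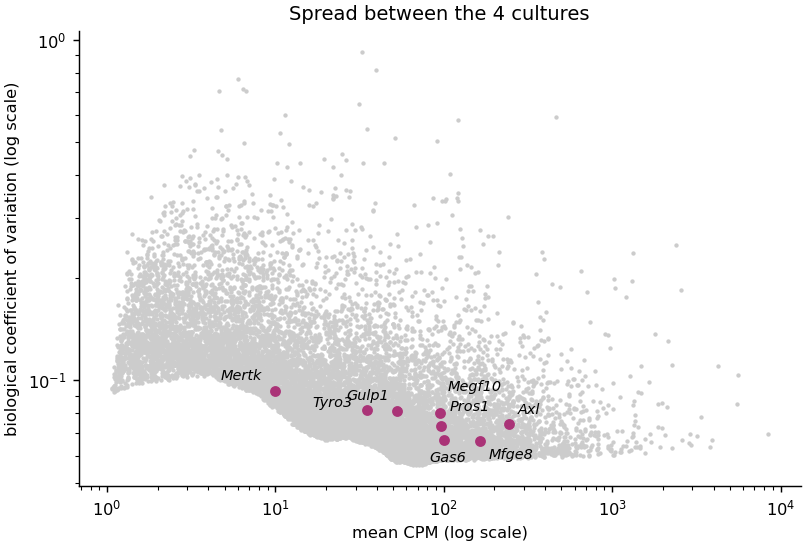
Biological coefficient of variation between the 4 cultures against mean CPM, both on log axes. Grey points are expressed genes and coloured points the members, which lie between 0.066 and 0.093.

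In every member, culture 4 was within 1.5-fold of the mean of cultures 1 to 3. Its log2 difference was 0.23 for Megf10, 0.19 for Tyro3 and 0.14 for Mfge8. It was -0.14 for Gulp1, -0.14 for Pros1, -0.13 for Mertk, -0.13 for Axl and -0.07 for Gas6. All 8 members lay outside the range of cultures 1 to 3 in culture 4, as did 82.2% of expressed genes. Culture 4 was also above the others in 10 of 10 listed proliferation genes, whose summed level was 2293 CPM there and 1731 to 1762 CPM in cultures 1 to 3 and a median log2 difference of 0.41; their part in the shifts of the members was not tested. Past 1.5-fold in either direction were 0 of 8 members in any culture, and of all expressed genes 6.57% in culture 4, 0.407% in culture 1, 0.333% in culture 2 and 0.421% in culture 3. These are single libraries set against 3, without a test. In 15.2% of expressed genes and in 0 of 8 members, 1 culture lay apart by Dixon's ratio. That ratio is the gap to the nearest culture over the whole range, here past its 95% critical value. With 8 members, a count of 0 cannot be told apart from this share, or from the 6.57% past 1.5-fold in culture 4.

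**Figure D4:**
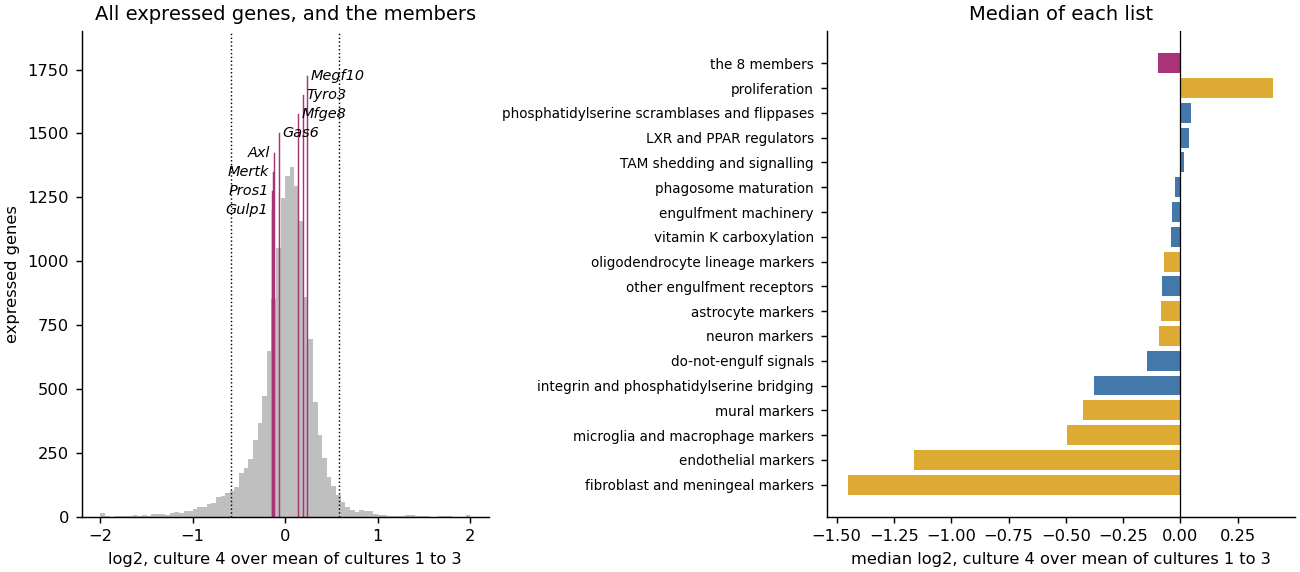
Log2 ratio of CPM in culture 4 to the mean of cultures 1 to 3. Left, the histogram of expressed genes (values past 2 in size are drawn at 2), the members as lines and 1.5-fold as dotted lines; right, the median over the expressed genes of each list, with the members in purple, pathway lists in blue, and cell type and proliferation lists in yellow. The members lie between -0.14 and 0.23, while the median of the fibroblast list is -1.45, over 4 expressed genes of which 3 are lower.

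The wider engulfment pathway was largely present, with 105 of 119 listed genes expressed (32.2% of all genes were). Of the genes listed as engulfment machinery, 20 of 20 were expressed. They were led per length by the small GTPases Rac1 (225.7 ± 2.94 RPKM) and Rhoa (191.9 ± 1.85 RPKM) and the actin nucleating subunit Arpc2 (156.1 ± 1.27 RPKM). All 22 listed genes of phagosome maturation were expressed too, led by Lamp1 (396.9 ± 27.2 RPKM), a membrane protein of lysosomes, Rab5c (173.7 ± 8.96 RPKM) and Rab7 (145.0 ± 5.04 RPKM). Within these lists Elmo1, an activator of Rac1, and Pik3c3, the lipid kinase of early phagosomes, had the widest ranges. Pik3c3 stood at 74.2 CPM in culture 4 and 55.2 to 56.9 CPM in cultures 1 to 3, and Elmo1 at 12.1 CPM in culture 4 and 13.5 to 15.2 CPM in cultures 1 to 3.

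Of 16 genes of TAM shedding and signalling 16 were expressed. Adam10, a protease that sheds cell surface proteins, had 53.9 ± 1.40 RPKM, the phosphatase Ptpn11 38.9 ± 0.37 RPKM and the adaptor Grb2 28.8 ± 0.90 RPKM. Vav1, a guanine nucleotide exchange factor of blood cells, had 1.79 CPM in culture 4 and 2.65 to 3.91 CPM in cultures 1 to 3. Of 8 LXR, RXR and PPAR genes, from families of nuclear receptors that induce Mertk in mouse macrophages, 6 were expressed. They were led by Nr1h2 (21.5 ± 0.46 RPKM), Ppard (11.5 ± 0.69 RPKM) and Rxrb (10.2 ± 0.50 RPKM). Ppara had the widest range of these 6, at 7.09 CPM in culture 4 and 4.87 to 5.61 CPM in cultures 1 to 3. Pparg and Rxrg were not expressed by the rule and had wider ranges (both were named after their values were seen). Pparg had 0.31 CPM in culture 4 and 1.83 to 2.05 CPM in cultures 1 to 3. Rxrg had 0.14 CPM in culture 4 and 0.37 to 0.56 CPM in cultures 1 to 3.

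Other engulfment receptors were mixed, with 12 of 18 expressed, and 6 at a minimum of 10 CPM. Adgrb1 (BAI1), a receptor for phosphatidylserine, had 120.1 CPM in culture 4 and 191.8 to 198.1 CPM in cultures 1 to 3, or 24.9 ± 5.24 RPKM over all. The 2 phosphatidylserine receptors of the TIM family that were listed were at the floor, with 2 counts in all for Timd4 and 0 for Havcr1. A library with 0 counts allows up to 0.071 to 0.080 CPM (3 counts). For Timd4 this limit does not hold in cultures 1 and 2, where it had 0.024 and 0.025 CPM. Of 13 scramblases and flippases, which move phosphatidylserine across the membrane, 10 were expressed, led by Tmem30a (74.5 ± 4.18 RPKM), Ano6 (15.0 ± 0.82 RPKM) and Atp11b (12.2 ± 0.34 RPKM). Xkr8, a scramblase of dying cells, had 6.16 CPM in culture 4 and 7.56 to 8.17 CPM in cultures 1 to 3, and its relative Xkr9 had 3 counts in all. Signals that restrain engulfment were led by Cd24a (81.7 ± 6.11 RPKM), Sirpa (25.4 ± 4.42 RPKM) and Cd47 (7.20 ± 0.42 RPKM), and 3 of 5 were expressed. Sirpa, the receptor for Cd47, stood at 118.4 CPM in culture 4 and 172.1 to 177.4 CPM in cultures 1 to 3.

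Of 12 further genes listed under integrin and phosphatidylserine bridging, 11 were expressed, led by Calr (534.6 ± 11.5 RPKM), Clu (315.8 ± 38.7 RPKM) and Apoe (281.1 ± 43.0 RPKM). Whether each of them acts as a bridge in these cells was not tested. The C1q chains, which bind Megf10 in mouse and are made in the brain mainly by microglia, were at 16.5 CPM for C1qa and 10.9 CPM for C1qc in culture 4, against 29.3 to 31.4 and 19.9 to 21.2 CPM in cultures 1 to 3. Of the microglial markers, Csf1r stood at 23.5 CPM in culture 4 and 31.3 to 34.0 CPM in cultures 1 to 3, Cx3cr1 at 10.4 CPM in culture 4 and 13.5 to 17.5 CPM in cultures 1 to 3, and Tmem119 at 0.76 CPM in culture 4 and 3.12 to 3.54 CPM in cultures 1 to 3. The other 9 beside C1qa were Tyrobp, Fcer1g, Cd68, Itgam, Aif1, P2ry12, Ptprc and Mrc1, which were also lower in culture 4 than in each other culture, and Trem2, which was at 3.87 CPM there and at 2.60 to 3.12 CPM in the rest. Over all pathway lists 8 of 105 expressed genes were past 1.5-fold in culture 4 (6.57% of all expressed genes were), with 6 lower and 2 higher. The lower ones were Vav1, Adgrb1, C1qa, C1qb, C1qc and Anxa1, and the higher ones Megf11 and Ager. Of these, C1qb, Anxa1 and Ager are named after their values were seen. The rule of 1 CPM in every library leaves out genes that fell below it in culture 4 alone, here and in the 6.57%. Among pathway genes these were Itgb3, Edil3 and Pparg, with log2 differences of -0.96, -2.10 and -2.67 in culture 4. Without culture 4, 108 pathway genes were expressed.

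The genes whose course over the cultures was nearest to a member were found by the root mean square difference of centred log2 CPM over the 4 cultures, among 10723 other genes with a mean of at least 10 CPM. Among receptors these were Wdr81, Lpcat3 and Acp6 for Axl, and Mpc2, Dkk3 and Fggy for Mertk. For the ligands they were Creb3, Cttn and Ndufa9 for Gas6 and Prmt9, Rragd and Alcam for Pros1. They were Arhgef2, Dnmbp and Eral1 for Mfge8, Hnrnph3, Kif23 and Gnl3 for Megf10, and Erc2, Slc35a5 and Rint1 for Gulp1. All of these differences were below 0.009. With 4 libraries such closeness is common: between 313 genes (Gulp1) and 2216 genes (Mfge8) lay within 0.05 of a member, so nothing is read from the names.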

How the data were processed

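The deposited table gives estimated counts per gene, not normalized by the authors; 31.7% of the values above 0 are not whole. Tools named in the submitters' processing notes are STAR 2.7.2b, featureCounts 1.6.4, cutadapt 1.17 and bcl2fastq 2.20.0.422, with build GRCm38.p6; their settings, strand use included, are not stated in the labels. Per the labels' protocols, the libraries were stranded and poly-A selected. CPM used raw library sums and RPKM the deposited exon length. At 37300485 to 42369109 counts per library, 1 count was 0.0236 to 0.0268 CPM. Reads amplified by PCR are not separate molecules, and floors reflect counting error alone.

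Each member was set against the 17104 other genes kept by filterByExpr in edgeR 4.0.16 (quasi-likelihood, two-sided, counts rounded, library and gene terms, offset of library size times length), adjusted by Benjamini-Hochberg at 0.05. These tests share the 4 counts of the member. BCV came from edgeR with TMM. Alternatives were DESeq2 1.42.0, other lengths, filters, scalings and thresholds, each culture left out, and cultures 1 to 3 summed.

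Members and lists were chosen with earlier results of these data known. Named genes are the members; of each pathway list the 3 highest by RPKM, the expressed gene of widest range and those with 3 counts or fewer; the microglial markers; of other marker lists the 3 highest and those with 3 counts or fewer; and the 3 genes nearest in course to each member. Those of Tyro3 are not reported here. Ggcx, the genes that overlap a member, and the genes said to be named after their values were seen, Pparg, Rxrg and Gad2 among them, fall outside this rule.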

Additional observations from a re-analysis of the deposited data

Results flagged for a closer look

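Of 91 genes checked, 28 had 1 culture far from the other 3, by the gap to the nearest culture over the whole range of the 4 (Dixon's ratio, past its 95% critical value), and 0 of the 8 members did; the largest ratio of a member was 0.653. Culture 4 was the one apart in all 28, lower in 22 and higher in 6. Chance flags about 1 in 20 groups, and 15.2% of all expressed genes passed the same value. Some of the 91 genes were picked for a wide range or after their values were seen. Their share of flags can therefore not be compared with either figure. With 8 members, a count of 0 cannot be told apart from the 15.2%. Among pathway genes culture 4 was lower for Nqo1 (0.947), Adgrb1 (0.919), Clu (0.949), Apoe (0.862), C1qa (0.86), C1qb (0.9), C1qc (0.876), Anxa1 (0.921), Edil3 (0.847), Sirpa (0.911), Lamp1 (0.945), Rab7 (0.936) and Pparg (0.874). It was higher for Ano6 (0.851) and Pik3c3 (0.913). Among cell type markers and proliferation genes it was lower for Gfap (0.927), P2ry12 (0.836), Tmem119 (0.848), Tubb3 (0.866), Flt1 (0.896), Pdgfrb (0.903), Col1a2 (0.911), Col1a1 (0.904) and Col3a1 (0.913), and higher for Aldoc (0.886), Pcna (0.854), Top2a (0.92) and Ccnb1 (0.908). These flags are of single genes and do not stand for whole lists. Of the 5 expressed neuron markers, Tubb3 was more than 1.5-fold lower in culture 4 (log2 difference -1.40). Gad2, named after its values were seen, was more than 1.5-fold higher there (log2 difference 0.96). The cause of the flags was not tested.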

How the results depend on the processing

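All 3 receptor ratios kept direction and call under every alternative run: no length term, GENCODE lengths, no filter, DESeq2, cultures 1 to 3 summed, and each culture left out. Without the length term the ligand ratio fell to a log2 value of 0.065 (adjusted p = 0.252), 4 of 7 neighbouring pairs kept their call and direction, Mfge8 over Axl turned to -0.57 and Gulp1 over Megf10 to -0.86; the last also lost its call with cultures 1 to 3 summed (0.21). Leaving out 1 culture gave log2 ratios of 2.71 to 2.82 for Axl over Tyro3, 4.53 to 4.58 for Axl over Mertk, 1.74 to 1.87 for Tyro3 over Mertk and 0.43 to 0.49 for Gas6 over Pros1. It gave 7 of 7 neighbouring pairs, 8 of 8 expressed members and 105 to 108 expressed pathway genes each time. The median BCV of the members was 0.027 to 0.092, lowest without culture 4, where the median of all genes was 0.0255 and 6 of 8 members lay above it. At 10 CPM 7 members were expressed, Mertk being the exception. Of the pathway genes 90 were, 6 of them other engulfment receptors and 4 LXR, RXR and PPAR genes. No scaling moved a member past 1.5-fold in culture 4. No paired analysis was possible because there is 1 group. RPKM divides by all annotated exons, so where shorter transcripts are in use it understates the level. Mertk rests on the fewest counts, 1595 in all.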
